A study of Mus musculus with 9 samples.

Results

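The 10 genes described here are those used in the mammary gland field to mark or sustain stem and progenitor cells: the transcription factor genes Bcl11a, Bcl11b, Sox9 and Sox10, the receptor genes Procr, Lgr5 and Lgr6, the Polycomb gene Bmi1, the membrane glycoprotein gene Prom1 and the enzyme gene Aldh1a1. They were taken by name, as 10 of the 54281 genes listed in the files, and each symbol matched 1 row. They were followed in Comma-1D, an immortalised mouse mammary epithelial line, cultured in medium with serum, EGF and insulin. RNA was sequenced in bulk from 3 sorted populations: bi (Sca-1 high, EpCAM high), L (Sca-1 low, EpCAM high) and B (Sca-1 high, EpCAM low). Each population came from cells transduced with activated MYC, from cells transduced with activated Her2 and from control cells, so that the 9 libraries hold every combination once. The labels do not say whether the controls carried an empty vector, which species the transgenes came from or whether the arms were separate cultures, so p-values measure only the spread between these libraries, part of which may be technical.

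The mammary epithelium has an inner luminal and an outer basal layer, and cells that rebuild a whole gland on transplantation are found mostly in the basal layer. BCL11A, BCL11B, SOX9 and SOX10 are nuclear factors that set cell fate in several tissues. PROCR is the endothelial protein C receptor and a surface mark of a mammary stem cell subset. LGR5 and LGR6 bind R-spondins and raise the response to Wnt ligands. BMI1 belongs to a Polycomb repressive complex and holds the Cdkn2a locus silent, while PROM1 (CD133) and ALDH1A1, which makes retinoic acid, are used to sort luminal progenitors or stem-like cells.

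Depth ran from 46.9 to 98.9 M estimated reads per library. Levels are given in CPM, the reads of a gene scaled to the total of its library, and a gene without a read in a library was assigned a limit of 3 reads. Myc was at 179 to 266 CPM in the MYC libraries, against 85.0 to 119 CPM in the control libraries. Erbb2, which encodes Her2, was at 191 to 587 CPM in the Her2 libraries, against 55.6 to 90.8 CPM in the control libraries. The sort used EpCAM and Sca-1. Epcam was at 240 to 319 CPM in bi and 376 to 550 CPM in L, against at most 0.796 CPM in B. Ly6a, which encodes Sca-1, separated less widely: it was at 132, 17.1 and 17.4 CPM in bi MYC, bi Her2 and bi control, at 14.6, 2.14 and 6.66 CPM in L, and at 104, 19.6 and 60.3 CPM in B. The populations were checked against marker lists. The 7 luminal markers summed to 616 to 674 CPM in bi and 958 to 2054 CPM in L, against 2.11 to 5.86 CPM in B. The 7 basal markers summed to 3602 to 5109 CPM in bi and 1554 to 3724 CPM in L, against 1799 to 3938 CPM in B. The 7 fibroblast markers summed to 24.2 to 36.5 CPM in bi and 16.3 to 21.4 CPM in L, against 85.2 to 138 CPM in B, with Dpt at 0 in every library. Pdgfra made up most of each B sum (52.7 to 94.9 CPM), and Pdgfrb was also highest in B (4.26 to 15.3 CPM). Dcn was at 23.3, 25.7 and 1.28 CPM in B MYC, B Her2 and B control, and Col1a1 at 4.41, 2.40 and 37.8. Lum was at most 0.0757 CPM in any library, and Col3a1 was highest in L control (1.26 CPM). Endothelial, leukocyte and adipocyte markers summed to at most 9.04 CPM in any library. In bulk RNA, fewer cells that express a gene and less RNA per cell cannot be told apart.

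Set side by side per length, the genes covered a wide range of levels. Over the 9 libraries Sox9 averaged 85.1 CPM per kb of annotated exon, Procr 14.5 and Bmi1 9.61. Bcl11b averaged 4.10 CPM per kb, Lgr6 3.97, Bcl11a 1.37 and Prom1 0.888. Sox10 at 0.178 CPM per kb, Aldh1a1 at 0.119 and Lgr5 at 0.0403 were the lowest, and their values rest on few reads. The TPM the authors deposited put Bmi1 (26.3 TPM) above Procr (20.7) and Aldh1a1 (0.289) above Sox10 (0.200), so neither pair has a settled order. The neighbours Bcl11b and Lgr6 overlapped across libraries.

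**Figure D1:**
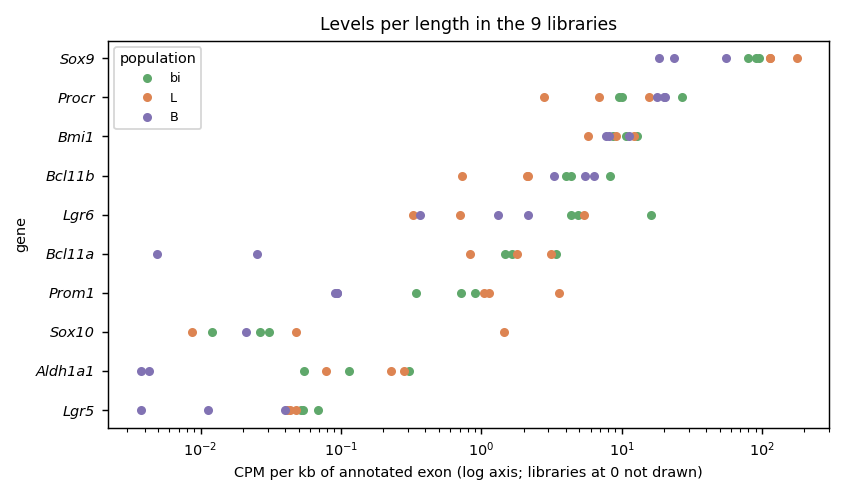
Level per length of each gene (horizontal log axis, CPM per kb of annotated exon) in the 9 libraries, 1 point per library coloured by population, with genes ordered from the highest mean at the top to the lowest at the bottom. Sox9 lies above all other genes on average (mean 85.1 CPM per kb) and Lgr5 lowest (0.0403), and the Bcl11a points split into a high set from bi and L and a low set from B.

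Differences between populations were tested as averages over the 3 arms, 3 libraries against 3, in an additive model fitted to all 9 libraries with edgeR's quasi-likelihood test, with adjusted p from the Benjamini-Hochberg method over all 23834 genes tested and a threshold of 0.05. Sox10 had too few reads to enter that test and 9 of the 10 genes did. In L against B, 6 of the 9 changed, where 20.8% of all tested genes did: Bcl11a, Sox9, Prom1 and Aldh1a1 rose (background 11.5%) and Bcl11b and Procr fell (9.26%). In bi against B, 5 of the 9 changed and all 5 rose, where 13% of all tested genes changed, 7.88% higher and 5.11% lower: Bcl11a, Sox9, Lgr6, Prom1 and Aldh1a1. In bi against L, 1 gene changed, Bcl11b, which rose, where 0.751% of all tested genes changed, 0.495% higher and 0.256% lower. The median log2 fold change of the 9 genes was 1.41 in L against B, 1.85 in bi against B and 0.35 in bi against L, beside medians of 0.04, 0.03 and 0.0007 over all genes tested. The comparisons against B share the B libraries, so these counts are not independent of one another. Aldh1a1, with 2 reads in B, entered the test through its bi and L reads, so it could be called higher than B but not lower. DESeq2 called 6, 6 and 2 of the 9 genes in the same 3 comparisons, and limma on the deposited TPM 6, 5 and 0. Over all genes DESeq2 called 5178, 3646 and 664 and limma 4558, 2841 and 74, beside 4953, 3094 and 179 by edgeR.

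**Figure D2:**
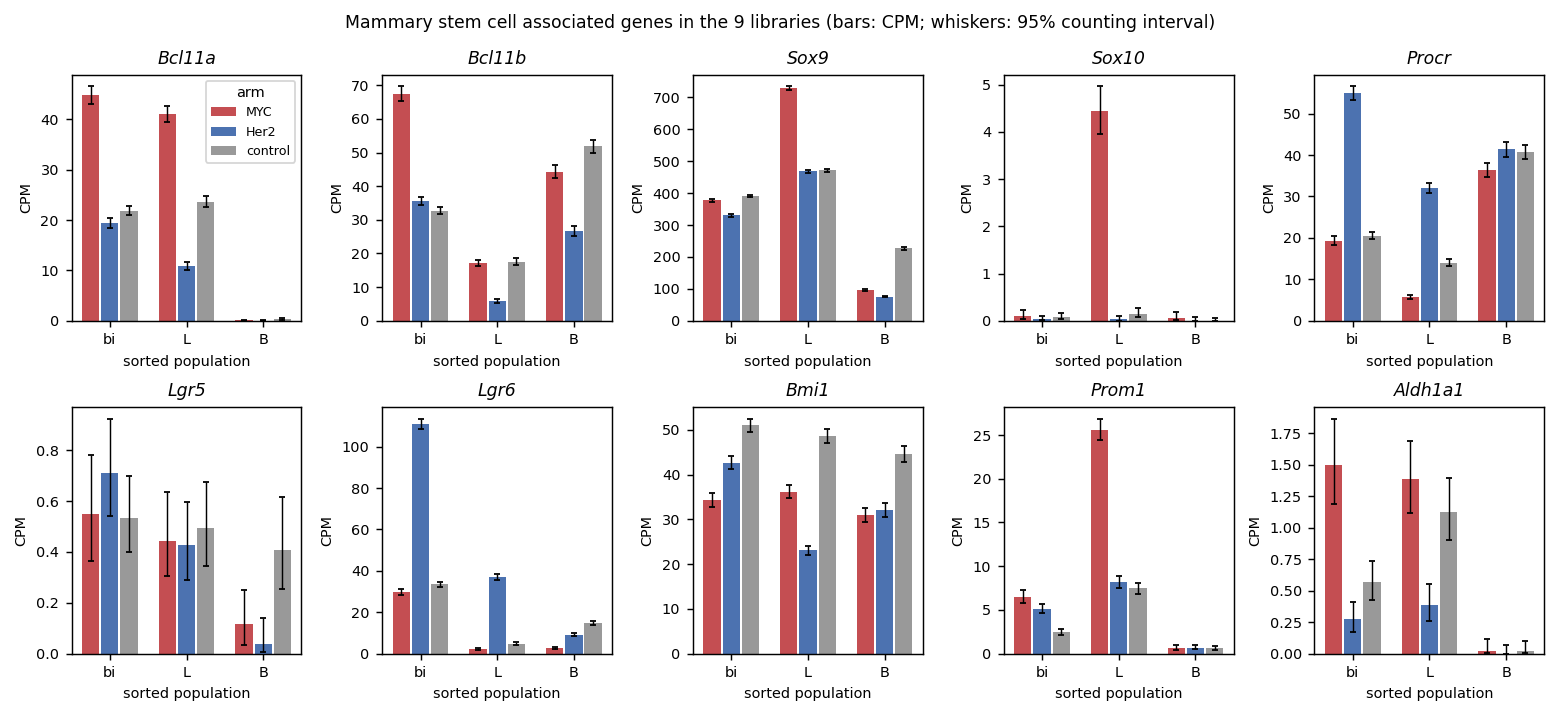
CPM of each gene (vertical axis, linear, from 0, scaled per gene) in the 9 libraries, grouped by population on the horizontal axis in the order bi, L, B and coloured by arm, with whiskers for the 95% counting interval. Bcl11a, Prom1 and Aldh1a1 are near 0 in the 3 B libraries, and Sox10 is high in the L MYC library alone (4.44 CPM).

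**Figure D3:**
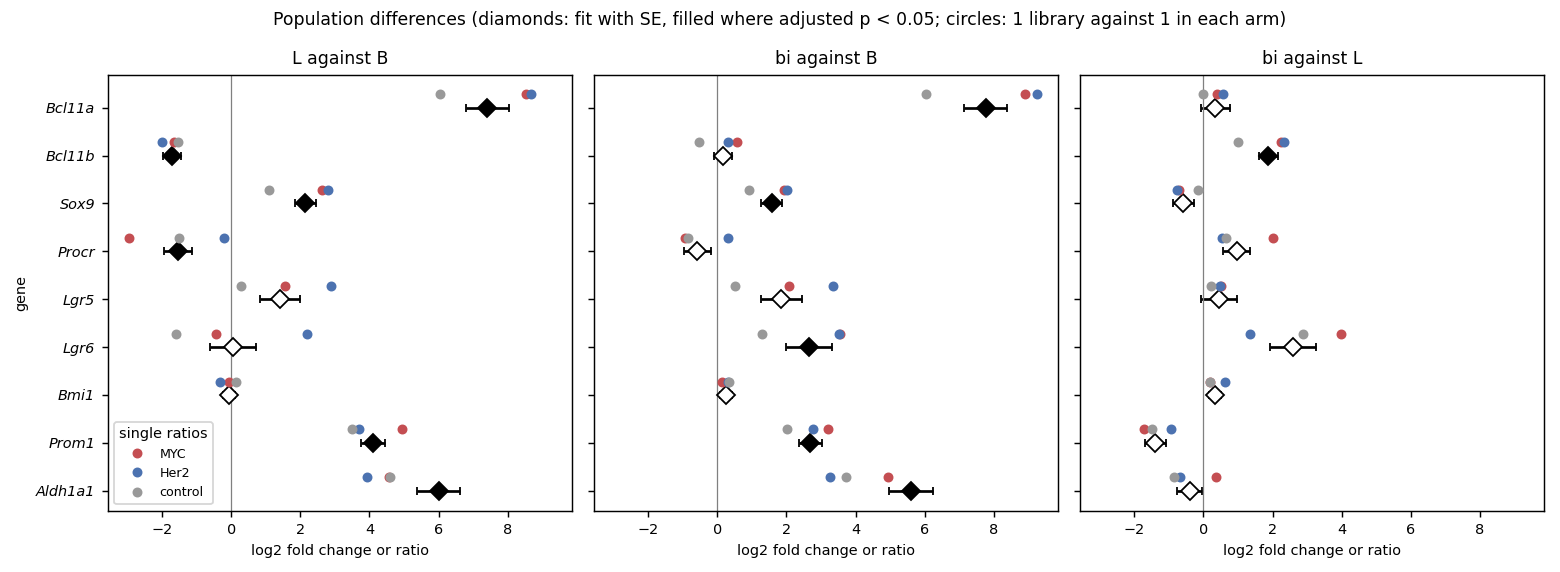
Log2 fold changes between populations for the 9 tested genes, with 1 panel per comparison. Diamonds are the fitted averages with their SE, filled where the adjusted p is below the threshold, and circles are ratios of 1 library to 1 library within each arm, with Bcl11a the largest difference from B (7.42 in L and 7.76 in bi).

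The promoter sequences of the genes that separated most strongly from B, together with that of Bmi1, are shown as background to the values that follow. RefSeq promoter windows on GRCm38.p6, each reaching from 250 bases before to 50 bases into a transcript, were matched for 7 of the 10 genes, in 9 windows. Capitals mark the E-box CACCTG or its reverse complement CAGGTG, to which ZEB and Snail repressors bind, and in Bmi1 the E-box CACGTG, to which MYC and MAX bind.
Bcl11a, chr11:24080445-24080744, plus strand: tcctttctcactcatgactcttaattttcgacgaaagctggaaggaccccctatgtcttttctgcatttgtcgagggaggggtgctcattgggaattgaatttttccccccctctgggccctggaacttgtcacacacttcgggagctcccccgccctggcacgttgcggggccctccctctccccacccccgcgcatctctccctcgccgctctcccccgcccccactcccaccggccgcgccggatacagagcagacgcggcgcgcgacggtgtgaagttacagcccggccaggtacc
Prom1 window 1, chr5:44101687-44101986, minus strand: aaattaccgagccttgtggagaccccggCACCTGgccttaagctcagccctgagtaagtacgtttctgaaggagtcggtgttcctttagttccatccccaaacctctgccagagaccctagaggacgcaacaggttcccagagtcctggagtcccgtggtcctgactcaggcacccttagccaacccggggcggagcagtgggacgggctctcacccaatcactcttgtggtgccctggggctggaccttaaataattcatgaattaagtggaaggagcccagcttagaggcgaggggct
Aldh1a1 window 1, chr19:20492333-20492632, plus strand: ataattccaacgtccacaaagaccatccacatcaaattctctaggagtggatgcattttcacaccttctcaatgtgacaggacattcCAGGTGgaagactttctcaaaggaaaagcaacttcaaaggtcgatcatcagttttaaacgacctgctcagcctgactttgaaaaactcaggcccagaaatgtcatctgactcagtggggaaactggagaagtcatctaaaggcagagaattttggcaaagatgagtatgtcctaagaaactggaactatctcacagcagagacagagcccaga
Aldh1a1 window 2, chr19:20601718-20602017, plus strand: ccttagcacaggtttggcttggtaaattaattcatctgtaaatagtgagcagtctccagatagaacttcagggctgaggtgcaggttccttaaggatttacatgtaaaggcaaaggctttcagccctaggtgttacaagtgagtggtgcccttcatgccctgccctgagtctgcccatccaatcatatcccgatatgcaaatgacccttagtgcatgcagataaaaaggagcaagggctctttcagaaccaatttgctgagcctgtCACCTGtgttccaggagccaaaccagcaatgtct
Bmi1, chr2:18676768-18677067, plus strand: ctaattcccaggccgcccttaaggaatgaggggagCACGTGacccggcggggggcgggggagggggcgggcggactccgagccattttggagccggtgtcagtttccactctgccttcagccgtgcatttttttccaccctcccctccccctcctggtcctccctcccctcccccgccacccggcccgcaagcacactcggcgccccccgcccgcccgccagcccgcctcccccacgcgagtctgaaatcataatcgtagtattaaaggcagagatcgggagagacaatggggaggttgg
On either strand, CACCTG occurred in 3 of the 9 windows, Prom1 window 1 and both Aldh1a1 windows, where 20.2% of all 32851 RefSeq windows of the same length held it. CACGTG occurred in 1 of the 9, that of Bmi1, where 7.15% of all windows held it. The SOX motif AACAAT occurred in the Lgr6 window (10.7% of all windows) and the TCF/LEF motif CTTTGAT in none of the 9 (3.73% of all windows). These are matches of letters and not measured binding sites.

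Bcl11a, which encodes a zinc-finger partner of BAF chromatin remodellers and is needed for luminal progenitors in mouse mammary tissue, was high in bi and L and almost not detected in B. It lies on mm10 chromosome 11, 24078056 to 24174123, plus strand. Bcl11a was at 44.7 CPM in bi MYC, 19.4 in bi Her2 and 21.8 in bi control, and at 41.1 in L MYC, 10.9 in L Her2 and 23.6 in L control. In B it had 3 reads in the MYC library (0.0650 CPM), 0 in the Her2 library, which allows up to 0.0581 CPM, and 18 in the control library (0.334 CPM). No B library reached the level of any bi or L library. The log2 fold change was 7.76 in bi against B (SE 0.62, adjusted p = 5.51e-05) and 7.42 in L against B (SE 0.61, adjusted p = 3.81e-05). Over the summed reads the ratio was 191 in bi against B (95% exact binomial counting interval 125 to 308) and 180 in L against B (117 to 291). Most B reads came from 1 library, and without B control the log2 fold change was 9.85 in bi against B and 9.52 in L against B. In bi against L it was 0.35 with no call. Of the 2 genes annotated antisense to Bcl11a, Gm12064 and 4930538E20Rik, neither held more than 45 reads in any library.

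Bcl11b, the paralogue of Bcl11a, known for T-cell commitment and for basal cells in the mouse mammary gland, had another pattern, lowest in L. It lies on chromosome 12, 107910403 to 108003602, minus strand. Bcl11b was at 67.5 CPM in bi MYC, 35.6 in bi Her2 and 32.7 in bi control. It was at 17.1 CPM in L MYC, 5.92 in L Her2 and 17.6 in L control, and at 44.3 in B MYC, 26.7 in B Her2 and 51.9 in B control. All 3 L libraries lay below every bi and B library, while the bi and B libraries overlapped. Bcl11b rose in bi against L (log2 fold change 1.88, SE 0.27, adjusted p = 0.0189) and fell in L against B (-1.72, SE 0.26, adjusted p = 0.00145). In bi against B the log2 fold change was 0.16 (SE 0.26, adjusted p = 0.762). The call in bi against L was lost when L MYC, L Her2, bi MYC or bi Her2 was left out, with adjusted p of 0.0568 to 0.0956 over these and over the fits without the MYC or Her2 arm.

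Sox9, a factor of luminal progenitors and of many other epithelial progenitors, was the most abundant of the genes per length. It lies on chromosome 11, 112782224 to 112787760, plus strand. Sox9 was at 377 CPM in bi MYC, 330.2 in bi Her2 and 391 in bi control, and at 729 in L MYC, 468 in L Her2 and 471 in L control. In B it was at 96.8 CPM in the MYC library, 75.8 in the Her2 library and 227 in the control library. The libraries ranked L above bi above B with no overlap between populations. Sox9 rose in bi against B (log2 fold change 1.57, SE 0.30, adjusted p = 0.00879) and in L against B (2.15, SE 0.31, adjusted p = 0.00112), whereas bi against L gave -0.58 (SE 0.30, adjusted p = 0.709). The single-library ratios against B were smallest in the control arm, at 0.92 in bi and 1.08 in L on the log2 scale, against 1.93 to 2.03 in bi and 2.63 to 2.79 in L in the oncogene arms. That difference between arms was not tested.

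Sox10, a neural crest factor that in the mammary gland is known from progenitor and mesenchymal-like states, was close to the detection limit in 8 libraries. It lies on chromosome 15, 79154908 to 79165240, minus strand. Sox10 had 5 reads in bi MYC, 3 in bi Her2 and 8 in bi control, at most 0.0936 CPM. In L it had 308 reads in the MYC library (4.44 CPM), 2 in the Her2 library and 11 in the control library (0.146 CPM). In B it had 3 reads in the MYC library and 0 in the Her2 and control libraries. L MYC therefore held 308 of the 340 Sox10 reads in the 9 libraries, and its ratio to L control was 30.4 (95% exact binomial counting interval 16.8 to 61.6). That compares 2 libraries and not MYC with control, since the design has no second L MYC library. With no filter on low counts edgeR called Sox10 in L against B, MYC against control and MYC against Her2, and those calls rest on the same library. Of the neural crest and Schwann cell markers, Foxd3 had 0 reads in L MYC and S100b was at 0.389 CPM, within the range of the other libraries, while Cdh19 was at 0.837 CPM in L MYC against at most 0.265 CPM elsewhere. Erbb3 (112 CPM) and Mitf (8.34 CPM) were also highest in L MYC among the 9 libraries, against at most 99.5 and 7.10 CPM elsewhere. The 7 markers summed to 34.2 to 66.9 CPM in bi and 71.7 to 123 CPM in L, against 9.10 to 17.7 CPM in B, most of it Erbb3 in bi and L. The highest sum, 123 CPM, was that of L MYC, and the part of these markers in the Sox10 reads was not tested.

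Among the receptors, Procr was the most abundant per length. It lies on chromosome 2, 155751117 to 155755471, plus strand. Procr was at 19.3 CPM in bi MYC, 55.0 in bi Her2 and 20.6 in bi control, and at 5.68 in L MYC, 32 in L Her2 and 13.9 in L control. In B it was at 36.3 CPM in the MYC library, 41.3 in the Her2 library and 40.7 in the control library. The B libraries lay close together and above every L library, and bi overlapped with both. Procr fell in L against B (log2 fold change -1.54, SE 0.42, adjusted p = 0.0267), while bi against B gave -0.58 (SE 0.40, adjusted p = 0.414) and bi against L 0.96 (SE 0.40, adjusted p = 0.517). The fall in L was uneven between arms, with single-library log2 ratios of -2.95 in MYC, -0.21 in Her2 and -1.51 in control. It lost its call without B control, B MYC, L control or L MYC (adjusted p = 0.0601 to 0.0989), and without the MYC arm the log2 fold change was -0.90 (adjusted p = 0.113).

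Lgr5, a Wnt target that marks stem cells of the intestine, was barely detected. It lies on chromosome 10, 115450311 to 115587780, minus strand. Lgr5 was at 0.549 CPM in bi MYC, 0.710 in bi Her2 and 0.535 in bi control, and at 0.443 in L MYC, 0.426 in L Her2 and 0.494 in L control. In B it had 5 reads in the MYC library (0.116 CPM), 2 in the Her2 library (0.0389 CPM) and 22 in the control library (0.408 CPM). The populations did not overlap in either comparison with B, but B control was close to L. Neither bi against B (log2 fold change 1.85, SE 0.59, adjusted p = 0.0695) nor L against B (1.41, SE 0.59, adjusted p = 0.129) passed the threshold in the filtered edgeR fit, while bi against B passed it with DESeq2 (adjusted p = 0.0207) and with edgeR and no filter (0.0168). Both passed it without B control, at 3.0 in bi against B (adjusted p = 0.0158) and 2.57 in L against B (adjusted p = 0.0199). The lowest B libraries are limited by depth.

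Lgr6, a relative of Lgr5 with a known role in hair follicle and mammary progenitors, was highest in bi in each arm. It lies on chromosome 1, 134983301 to 135105276, minus strand. Lgr6 was at 29.9 CPM in bi MYC, 111 in bi Her2 and 33.5 in bi control, and at 2.24 in L MYC, 36.9 in L Her2 and 4.84 in L control. In B it was at 2.50 CPM in the MYC library, 9.08 in the Her2 library and 14.9 in the control library. Every bi library lay above every B library, and the L libraries overlapped with both. Lgr6 rose in bi against B (log2 fold change 2.65, SE 0.66, adjusted p = 0.0279), while bi against L gave 2.59 (SE 0.66, adjusted p = 0.151). Bi against L passed the threshold with edgeR and no filter (adjusted p = 0.000396). It also passed in 3 of 13 fits with a library, arm or population left out. In L against B the average of 0.06 (SE 0.67, adjusted p = 0.967) joined single-library log2 ratios of -0.43 in MYC, 2.18 in Her2 and -1.58 in control. The call in bi against B was lost without B MYC, B Her2, bi MYC or bi Her2 (adjusted p = 0.0509 to 0.121), and without B control the log2 fold change was 3.66.

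Bmi1 was the steadiest of the 9 tested genes, with an SD of 0.33 on the log2 CPM scale over the 9 libraries, against 1.05 to 4.09 for the others. It lies on chromosome 2, 18677018 to 18686629, plus strand. Bmi1 was at 34.4 CPM in bi MYC, 42.7 in bi Her2 and 51.0 in bi control, and at 36.1 in L MYC, 23.0 in L Her2 and 48.6 in L control. In B it was at 31.0 CPM in the MYC library, 32.2 in the Her2 library and 44.6 in the control library. The populations overlapped in each comparison. The log2 fold change was 0.26 in bi against B (SE 0.17, adjusted p = 0.385), -0.07 in L against B (SE 0.17, adjusted p = 0.828) and 0.33 in bi against L (adjusted p = 0.709).

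Prom1, whose product sits in membrane protrusions at the apical side of epithelial cells, was graded from L through bi to B. It lies on chromosome 5, 43993620 to 44102032, minus strand. Prom1 was at 6.49 CPM in bi MYC, 5.12 in bi Her2 and 2.45 in bi control, and at 25.6 in L MYC, 8.19 in L Her2 and 7.46 in L control. In B it was at 0.669 CPM in the MYC library, 0.673 in the Her2 library and 0.654 in the control library. No 2 populations overlapped, and the B libraries were nearly equal. Prom1 rose in bi against B (log2 fold change 2.69, SE 0.33, adjusted p = 0.000789) and in L against B (4.09, SE 0.35, adjusted p = 4.41e-05), whereas bi against L gave -1.40 (SE 0.30, adjusted p = 0.0889). That fall passed the threshold with DESeq2 (adjusted p = 0.000367) and with edgeR and no filter (0.00849). Gm42716, annotated on the same strand within Prom1, held 2.00 to 33.5 estimated reads per library, so reads may have been divided between them.

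Aldh1a1 was detected at low levels in the EpCAM-high populations and almost not in B. It lies on chromosome 19, 20492715 to 20643465, plus strand. Aldh1a1 had 80 reads in bi MYC (1.498 CPM), 22 in bi Her2 (0.271 CPM) and 56 in bi control (0.566 CPM). It had 96 reads in L MYC (1.38 CPM), 29 in L Her2 (0.383 CPM) and 85 in L control (1.13 CPM), against 1, 0 and 1 in the MYC, Her2 and control libraries of B. Aldh1a1 rose in bi against B (log2 fold change 5.60, SE 0.63, adjusted p = 0.000451) and in L against B (6.0, SE 0.62, adjusted p = 0.000153). Over summed reads the ratio was 51.6 in bi against B (95% exact binomial counting interval 14.1 to 430.1) and 72.7 in L against B (19.9 to 604). Its near-identical neighbour Aldh1a7 followed the same order, with 60 reads in bi and 62 in L against 0 in B, at least 13.1-fold and 14.3-fold higher against a limit of 3 reads over the 3 B libraries. Without bi MYC the Aldh1a1 ratio in bi was 33.1 and the Aldh1a7 bound 6.78-fold. Reads of the pair may have been divided between them, and with the reads of both summed each call on Aldh1a1 was as before.

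Oncogene differences were averaged over the 3 populations in the same way. Few genes changed on average: 0.365% of tested genes in MYC against control (0.101% higher and 0.264% lower), 0.021% in Her2 against control (0.0126% higher and 0.00839% lower) and 4.57% in MYC against Her2 (2.44% higher and 2.13% lower). Of the 9 genes, edgeR called 0 in MYC against control, with 2 at an unadjusted p under 0.05, 1 by DESeq2 and 0 by limma on TPM. It called 0 in Her2 against control, with 4 at an unadjusted p under 0.05, 0 by DESeq2 and 0 by limma. In MYC against Her2 it called 1, Aldh1a1, which rose, with 6 at an unadjusted p under 0.05, 4 by DESeq2 and 0 by limma. Among all genes tested by edgeR, 13.9%, 8.8% and 19.1% had an unadjusted p under 0.05 in these comparisons, in the same order. The median log2 fold change of the 9 genes was -0.27 in MYC against control, -0.62 in Her2 against control and 0.37 in MYC against Her2, beside 0.03, -0.01 and 0.02 over all genes tested. MYC against control and Her2 against control share the control libraries, so their values are not independent.

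**Figure D4:**
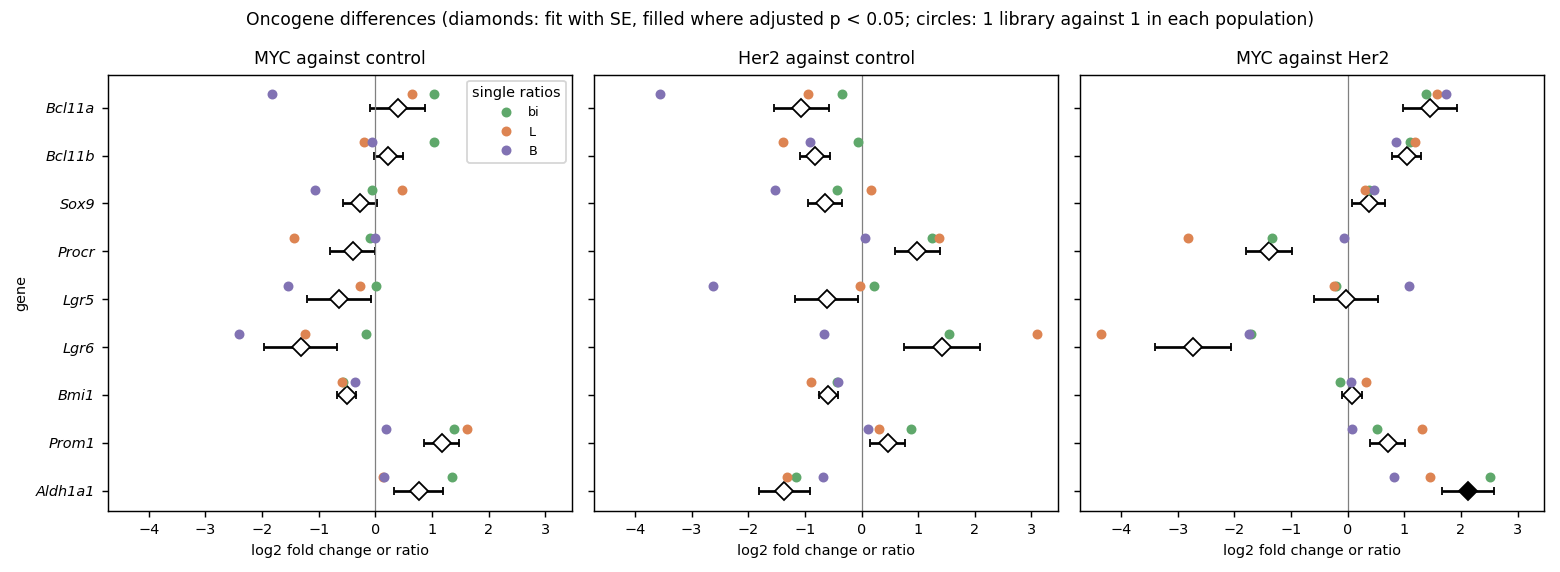
Log2 fold changes between arms for the 9 tested genes, with 1 panel per comparison. Diamonds are the fitted averages over populations with their SE, filled where the adjusted p is below the threshold, and circles are ratios of 1 library to 1 library within each population, with Aldh1a1 in MYC against Her2 (2.12) as the single filled diamond.

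Aldh1a1 was higher in the MYC library than in the Her2 library of bi (80 against 22 reads) and of L (96 against 29 reads), and B had 1 read against 0. The MYC against Her2 log2 fold change was 2.12 (SE 0.46, adjusted p = 0.0328). It rests on few reads and lost its call without bi MYC (1.51, adjusted p = 0.334), L Her2 (adjusted p = 0.148), bi Her2 (adjusted p = 0.131) or L control (adjusted p = 0.0545). Aldh1a7 had 36 reads in bi MYC and 8 in bi Her2, and 32 in L MYC and 10 in L Her2. Against control, Aldh1a1 gave 0.76 in MYC and -1.36 in Her2 with no call.

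Lgr6 and Procr were higher in the Her2 library than in the control library of bi and of L. Lgr6 was at 111 CPM in bi Her2 against 33.5 in bi control, and at 36.9 CPM in L Her2 against 4.84 in L control, while B Her2 had 9.08 CPM against 14.9 in B control. The average log2 fold change of Lgr6 was 1.41 in Her2 against control (SE 0.67, adjusted p = 0.607), -1.32 in MYC against control (SE 0.64, adjusted p = 0.404) and -2.73 in MYC against Her2 (SE 0.67, adjusted p = 0.0508). Procr likewise was at 55.0 CPM in bi Her2 against 20.6 in bi control and at 32 CPM in L Her2 against 13.9 in L control, with 41.3 against 40.7 in B. Its average was 0.99 in Her2 against control (SE 0.40, adjusted p = 0.496) and -1.39 in MYC against Her2 (SE 0.41, adjusted p = 0.0945). Neither gene passed the threshold in an oncogene comparison in the fit to all 9 libraries with TMM scaling and the filter on low counts. With a library, arm or population left out, MYC against Her2 was called in 7 of 13 fits for Lgr6 and 3 of 13 for Procr. In MYC against Her2, both were called by DESeq2 (adjusted p = 0.0140 for Lgr6 and 0.00479 for Procr) and by edgeR with no filter (7.74e-05 and 0.00325), and Lgr6 also by edgeR with DESeq2 size factors (0.0433) or library totals alone (0.0388). Lgr5 in B was at 5 reads with MYC and 2 with Her2, against 22 in control, and its average was -0.64 in MYC and -0.62 in Her2 against control with no call.

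Bmi1 was lower in the MYC and the Her2 library than in the control library of each population, and averaged 33.8 ± 2.63 CPM with MYC and 32.6 ± 9.84 CPM with Her2, against 48.1 ± 3.26 CPM in control (SD over 3 populations). Neither group overlapped with control. The log2 fold change was -0.51 in MYC against control (SE 0.17, adjusted p = 0.208) and -0.58 in Her2 against control (SE 0.17, adjusted p = 0.281), so neither passed the threshold. In 13 fits that each left out a library, an arm or a population both stayed below 0, between -0.61 and -0.41 in MYC and between -0.68 and -0.39 in Her2. The shown Bmi1 window holds the CACGTG E-box, and no binding was measured here.

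Prom1 was at 25.6 CPM in L MYC against 7.46 in L control and at 6.49 CPM in bi MYC against 2.45 in bi control, with 0.669 against 0.654 in B. The average was 1.17 (SE 0.31, adjusted p = 0.129), which passed the threshold with DESeq2 (adjusted p = 0.0100), with edgeR and no filter on low counts (0.0479) and with edgeR without the B population (0.0381). Bcl11b was higher in the MYC library than in the Her2 library of each population, and Bcl11a in those of bi and L, while B had 3 Bcl11a reads with MYC and 0 with Her2, too few to tell. Averaged over populations, Bcl11a gave 1.45 (SE 0.47, adjusted p = 0.123) and Bcl11b 1.05 (SE 0.26, adjusted p = 0.0511), in MYC against Her2, and DESeq2 called Bcl11b (adjusted p = 0.00760). Against control, Bcl11a gave 0.39 in MYC and -1.06 in Her2 and Bcl11b gave 0.23 and -0.82, none called. Sox9 gave -0.27 in MYC and -0.64 in Her2 against control with no call, and its ratios were lowest in B, at -1.07 for MYC and -1.54 for Her2.

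Related gene lists are described by counts and medians, to be read against the shares of all tested genes given above and all-gene medians near 0. The all-gene share at an unadjusted p under 0.05 in edgeR was 26.2% in bi against B and 8.65% in bi against L. Over 8 lists with 122 tested genes, 40 rose and 15 fell in L against B and 32 rose and 6 fell in bi against B. In bi against L, 1 rose and 2 fell, and in MYC against Her2, 6 rose and 6 fell. Genes with almost no reads in B entered the test through their L and bi reads, so they could be called higher than B but not lower. Examples are Cyp26a1, Aldh1a7 and Rspo3, with 0 reads in B, and Sox13, with 2. EdgeR called 0 of the 122 in MYC against control, with 28 at an unadjusted p under 0.05, 7 by DESeq2 and 5 by limma. It called 0 in Her2 against control, with 25 at an unadjusted p under 0.05, 7 by DESeq2 and 0 by limma. The smallest adjusted p in these 2 comparisons was 0.0522, for the BAF subunit gene Dpf1 in MYC against control (log2 fold change -1.505), and 0.0924, for the retinol dehydrogenase gene Dhrs9 in Her2 against control (3.10).

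The other SOX genes followed the direction of Sox9 in L and bi more often than not. Of 9 tested, 6 rose and 1 fell in L against B, and 5 rose and 1 fell in bi against B, with medians of 2.74 and 2.42. Sox6 averaged 5.10 ± 0.943 CPM in bi and 9.89 ± 5.04 CPM in L, against 0.0511 ± 0.0270 CPM in B (SD, n = 3 each), with log2 fold changes from edgeR of 6.56 in bi against B (adjusted p = 1.65e-05) and 7.37 in L against B (adjusted p = 6.53e-06). Sox13 had 192 reads in bi and 897 in L against 2 in B, a ratio of 62.8 for bi (95% counting interval 17.1 to 522) and 311 for L (85.7 to 2569). The MYC libraries held much of this, and the ratio was 28.8 in bi without bi MYC and 171 in L without L MYC. Sox2, a pluripotency factor, ran the other way, at 5.87 ± 1.65 CPM in bi and 1.78 ± 1.11 CPM in L against 17.7 ± 2.84 CPM in B (log2 fold change -1.64 in bi, adjusted p = 0.00663, and -3.47 in L, adjusted p = 8.09e-05). Sox2 was also the gene of this list that rose in bi against L (1.84, adjusted p = 0.0332). Sox15 fell in MYC against Her2 (-1.44, adjusted p = 0.0488).

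Of 19 tested genes of retinoid synthesis and response, the setting of Aldh1a1, 11 rose and 2 fell in L against B and 9 rose and 2 fell in bi against B, with medians of 1.65 and 1.52. Cyp26a1, which degrades retinoic acid, had 82 reads in bi and 72 in L against 0 in B, at least 17.9-fold and 16.6-fold higher. These bounds rest on single libraries: without bi MYC the bound was 3.67-fold in bi (13 reads), and without L MYC it was 8.42-fold in L (25 reads). Aldh3a1, another aldehyde dehydrogenase gene, fell to 56.6 ± 39.6 CPM in bi (log2 fold change -1.62, adjusted p = 0.0414) and 13.7 ± 5.53 CPM in L (-3.48, adjusted p = 0.000873), against 201 ± 180 CPM in B (SD, n = 3 each). The retinoid X receptor gene Rxrb also fell in bi (-0.74) and in L (-1.15). Rarb, a retinoic acid receptor gene, fell in bi against L (-2.50, adjusted p = 0.0391). In MYC against Her2, Rdh10, which makes retinal, rose (1.38, adjusted p = 0.0125) and Dhrs9 fell (-3.55, adjusted p = 0.0144), while Cyp26a1 had 116 reads with MYC and 2 with Her2, a ratio of 71.3 (95% counting interval 19.3 to 596).

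Of 14 tested R-spondin and Wnt receptor genes, 6 rose and 2 fell in L against B, and 4 rose and 1 fell in bi against B, with medians of 0.21 and 0.05. Rnf43, a ubiquitin ligase gene that removes Wnt receptors and whose action the LGR proteins oppose, was at 0.450 CPM in bi and 1.03 CPM in L against 0.0740 CPM in B (log2 fold change 2.66, adjusted p = 0.00706, and 3.70, adjusted p = 0.000571). Rspo3, a ligand of LGR5 and LGR6, had 43 reads in bi and 338 in L against 0 in B, at least 9.37-fold and 78.0-fold higher, and its L reads were mostly in L MYC (3.79 CPM, against 0.198 in L Her2 and 0.795 in L control). Without L MYC the bound was 25.3-fold in L, and without bi control it was 5.67-fold in bi. The receptor gene Fzd1 fell in bi (-0.77, adjusted p = 0.0360) and in L (-1.22, adjusted p = 0.00278). In MYC against Her2, Rspo3 (3.49, adjusted p = 0.0358) and Lgr4, the third R-spondin receptor gene of the LGR family (0.87, adjusted p = 0.0158), rose. In bi against L, edgeR called 0 of the 14, with 3 at an unadjusted p under 0.05, 1 by DESeq2 and 0 by limma.

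Of 11 tested apical membrane partners of PROM1, 7 rose and 0 fell in L against B and 6 rose and 0 fell in bi against B, with medians of 1.70 and 1.51. The polarity gene Crb3 was at 6.92 ± 1.08 CPM in bi and 16.3 ± 9.50 CPM in L, against 0.0543 ± 0.0461 CPM in B (SD, n = 3 each). Prom2, the paralogue of Prom1, was at 4.62 ± 2.52 CPM in bi and 8.90 ± 1.74 CPM in L, against 0.0397 ± 0.0199 CPM in B. Their log2 fold changes were 7.02 and 6.77 in bi and 8.12 and 7.76 in L. In bi against L and in MYC against Her2 edgeR called 0 of the 11, with 4 and 6 at an unadjusted p under 0.05, 2 and 2 by DESeq2, and 0 and 0 by limma.

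The remaining lists moved less evenly. Of 18 tested genes of other mammary stem and basal progenitor programmes, 3 rose and 3 fell in L against B, and 4 rose and 0 fell in bi against B, with medians of 0.23 and 0.53. Foxc1, a forkhead factor gene, rose in bi (1.95, adjusted p = 8.84e-05) and L (1.82, adjusted p = 7.04e-05), and Snai2, which encodes the SLUG factor, in bi (1.57, adjusted p = 0.0383). The basal factor gene Trp63 (-1.41) and the Notch ligand gene Dll1 (-1.09) fell in L against B, and Ctnnb1, which encodes beta-catenin, rose (1.01). Foxc1 rose (1.23, adjusted p = 0.00617) and Nrg1, a ligand gene of the ERBB receptors, fell (-2.0, adjusted p = 0.00897) in MYC against Her2. Of 21 tested Polycomb genes, the setting of Bmi1, 3 rose and 3 fell in L against B and 3 rose and 0 fell in bi against B, with medians of -0.29 and -0.28. Cbx2, which encodes a chromodomain subunit, rose in bi (1.59) and in L (1.30), and Ring1 (-1.04) and the Polycomb target Cdkn2b (-0.89) fell in L.

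Of 19 tested BAF subunit genes, the complex BCL11A and BCL11B join, 1 rose and 2 fell in L against B: Ss18 (0.81), Smarcd3 (-1.24) and Smarca2 (-0.56), with a list median of -0.11. In bi against B edgeR called 0 of the 19, with 5 at an unadjusted p under 0.05, 1 by DESeq2 and 0 by limma. Smarca2 rose (1.19, adjusted p = 0.00687) and Dpf1 fell (-1.61, adjusted p = 0.0133) in MYC against Her2. Of 11 tested genes of the protein C and coagulation pathway, the setting of Procr, 3 rose and 2 fell in L against B and 1 rose and 2 fell in bi against B, with medians of 0.42 and -0.06. F2rl1, a protease-activated receptor gene, rose in bi (3.49) and L (5.40), and Pros1, which encodes the protein C cofactor protein S, fell in bi (-1.47) and L (-2.07). F3, the tissue factor gene, rose in L against B (2.08) and fell in bi against L (-1.39, adjusted p = 0.0293). Plaur (-2.95, adjusted p = 0.00605) and F2r (-1.26, adjusted p = 0.0323) fell in MYC against Her2.

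The genes nearest in pattern to each member were found by the root mean square difference of mean-centred log2 CPM over the 9 libraries, which is a description with no test. Nearest to Bcl11a were Nkd2 (0.54), Chdh (0.59) and Dsg3 (0.61). Nkd2, a Wnt pathway antagonist gene, was at 171, 124 and 164 CPM in the MYC, Her2 and control libraries of bi and at 211, 99.9 and 160 CPM in those of L, against 0.320, 0.329 and 1.57 CPM in those of B. Nearest to Aldh1a1 were Sema6a (0.41), Bnipl (0.44) and Hey1 (0.46), and nearest to Prom1 were Spata13 (0.51), Mgat4a (0.52) and Anxa6 (0.52). Bcl11b lay nearest Hcar2 (0.36), Neurl1b (0.38) and Igfbp3 (0.41), and Sox9 nearest Zfp114 (0.23), Pmvk (0.29) and Acp5 (0.31). Procr lay nearest Ptgs1 (0.30), Nuak2 (0.31) and Pcdh7 (0.32), and Lgr5 nearest Serpine2 (0.25), Idi1 (0.31) and Hist1h2ae (0.31). Genes near Lgr6 were farther off, at 0.97 for Notum, which encodes a Wnt deacylase, and 1.02 for Notumos. Among the members themselves, Sox9 and Lgr5 lay closest (0.53), followed by Bcl11b and Bmi1 (0.89) and by Prom1 and Aldh1a1 (0.91). Lgr5 had only 2 to 58 reads per library. Bmi1 varied little (SD 0.33), so its distance to Bcl11b mostly reflects the spread of Bcl11b (SD 1.05) and not a shared pattern.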

How the data were processed

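RNA libraries were made, per the labels' protocols, from total RNA with a stranded kit that depletes ribosomal RNA, although the molecule label reads polyA. Per the file headers, the deposited values are estimated counts of reads per gene and TPM, made with Salmon 0.9.1 on mm10 per the submitters' processing notes; the annotation release is not given in the sources used here. Deposited TPM depend on abundance-weighted lengths, so counts served as the main values. Symbols, coordinates and exon lengths came from the GENCODE annotation of GRCm38, and promoter sequences from RefSeq.

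After rounding, filterByExpr with arm as the group, at a minimum count of 10 and a minimum total of 15, retained 23834 genes. Counts were scaled with TMM (factors 0.903 to 1.14) and tested in edgeR 4.0.16 (R 4.3.3) with population and arm as additive terms on 9 libraries, leaving 4 residual degrees of freedom. The residual holds the interaction of population and arm with library noise. The SE is the log2 fold change divided by the square root of F. Single-library ratios are of TMM-scaled CPM (prior count 2) and have no test. Alternatives were DESeq2 1.42.0, limma 3.58.1 on log2(TPM + 0.1), other scalings, no filter, no block and libraries, arms or populations left out. Counting intervals and limits cover counting error only.

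Members and gene lists were chosen with earlier results of these data known. The text names all members and, per list and comparison, up to 2 genes with the largest rise and 2 with the largest fall past the threshold, or the smallest p where none passed. For likeness it names the 3 nearest genes of at least 1 mean CPM to each member with an SD of at least 1. A few genes that this rule names are not reported here.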

Additional observations from a re-analysis of the deposited data

Results flagged for a closer look

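The effect of population or oncogene passed 2-fold in opposite directions between blocks for 2 genes. In neither case was that difference tested, since each population and arm has 1 library. Lgr6 in L against B had log2 ratios of 2.18 in the Her2 arm, -0.43 in the MYC arm and -1.58 in the control arm. Bcl11a in MYC against control had log2 ratios of 1.03 in bi and 0.64 in L, but -1.83 in B, where it rests on 3 reads in the MYC library and 18 in the control library. Other members also changed sign between blocks without passing 2-fold both ways. Among them were Lgr6 in Her2 against control (-0.66 in B and 3.10 in L) and Sox9 in MYC against control (-1.07 in B and 0.47 in L). Bcl11b in bi against B was another (-0.53 in the control arm and 0.58 in the MYC arm).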

How the results depend on the processing

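Of 1080 member fold changes recomputed under alternatives, 31 lost their call, 41 gained one and 0 changed sign with a call. The other 1008 kept their side of the threshold, and 33 fold changes with no call in either fit changed sign. The number of genes called in MYC against control was 87, and 54 with DESeq2 size factors, 256 with library totals alone, 944 with no filter, 966 with DESeq2, 701 with limma on TPM and 4 with no block. For Her2 against control it was 5, and 32, 32, 619, 509, 0 and 0 under the same settings. For MYC against Her2 it was 1089, and 2089 with no filter, 1874 with DESeq2 and 6 with no block. It was 1430 with no block in bi against B (3094). In bi against L (179) it was 698 with no filter, 664 with DESeq2, 74 with limma and 20 with no block. Members called were 2 with no filter and 1 with DESeq2 in MYC against control (0). In MYC against Her2 (1) they were 2 with size factors, 2 with totals, 6 with no filter, 4 with DESeq2, 0 with limma and 0 with no block. In bi against L (1) they were 3, 2, 0 and 0 with no filter, DESeq2, limma and no block. Leaving out a library, arm or population gave 6 to 844 genes and 0 to 1 members in MYC against control, 0 to 196 and 0 to 0 in Her2 against control, and 217 to 2070 and 0 to 4 in MYC against Her2. It gave 2820 to 5328 and 5 to 7 in L against B, 1843 to 3276 and 4 to 6 in bi against B, and 33 to 263 and 0 to 3 in bi against L. The causes were not tested. On TPM with limma, Bcl11a against B gave 5.83 in bi and 5.58 in L, and Aldh1a1 1.99 and 2.31, where the pseudocount bounds low values. Sox9 in bi against B had an adjusted p of 0.0514 without the Her2 arm. The ratios of summed reads with a library left out were added after the data were seen. Depth limits Sox10, Lgr5 and Aldh1a1. Arms were compared within populations, and populations within arms, by the additive terms of the fit. Beyond this blocking, the replicate numbers of the 9 libraries, 1 for each population and arm, give no further pairing.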

Other observations

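In B, several members had their highest value in the control library. Bcl11a had 3 reads in B MYC and 0 in B Her2 against 18 in B control, Lgr5 had 5 and 2 against 22, Lgr6 had 117 and 469 against 803, and Sox9 had 4542 and 3916 against 12269. Bcl11b (44.3 and 26.7 against 51.9 CPM) and Bmi1 (31.0 and 32.2 against 44.6 CPM) were also highest in B control. Procr and Prom1 were not, and Sox10 and Aldh1a1 had at most 3 reads in any B library. Bcl11a, Lgr5, Lgr6 and Sox9 were picked after their values were seen. Beside them the luminal markers summed to 2.11 CPM in B MYC and 5.62 CPM in B Her2, against 5.86 CPM in B control. Epcam was at 0.171 and 0.310 against 0.796 CPM, and Cdh1 at 0.509 and 0.485 against 2.12 CPM. Krt18 was at 1.04 and 4.32 against 2.48 CPM and made up most of the B Her2 sum. Elf3 ran the other way, at 0.320 and 0.387 against 0.204 CPM, and Krt8, Krt19 and Cldn4 were at most 0.130 CPM. The part of these markers in the result was not tested.

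The lengths deposited with the values were shorter than the shortest annotated transcript for Prom1 (201 to 246 against 595 bases), Bmi1 (285 to 314 against 359) and Procr (389 to 412 against 504). Mean TPM was 2.19 for Prom1, 26.3 for Bmi1 and 20.7 for Procr, beside 0.888, 9.61 and 14.5 CPM per kb of annotated exon. Bcl11a, with deposited lengths of 793 to 3222 bases against a shortest transcript of 566, likewise had 4.69 TPM beside 1.37 CPM per kb. Sox9 had 80.9 beside 85.1. The part of the deposited lengths in these values was not tested.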
